A study of Mus musculus with 33 samples.

Results

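The genes described here encode the proteins of the cytosolic ribosome. They are the protein-coding genes of the mouse whose symbol is Rpl or Rps followed by a digit, with Rpsa, Rplp0, Rplp1 and Rplp2, and without the Rps6k kinases. Of 53465 genes in the count table, 92 had such a symbol, and 86 of them had 10 or more counts in at least 4 of the 32 regulatory T cell (Treg) libraries. These 86 fall into 31 genes of the small (40S) subunit, 43 of the large (60S) subunit, 3 of the P stalk and 9 that are paralogs, copies or named after a ribosomal protein. That last class includes Rps19bp1, a binding partner of Rps19 that is not itself part of the ribosome. All 86 also passed the filter on low counts of the main test. The ribosomal protein gene Fau, whose product is made as a fusion with a ubiquitin-like domain, carries another kind of symbol and is not among the 86.

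The study sorted Treg cells from the colon of Foxp3-yfp B6 mice, in which a yellow fluorescent protein allele reports the Treg transcription factor Foxp3. Every mouse of the series carries that allele. Mice came at 7 to 12 weeks of age, and their age at sacrifice is not known here. The cancer group received the carcinogen azoxymethane (AOM, 10 mg/kg, injected once) and then cycles of dextran sodium sulfate (DSS) in the drinking water, each with 7 days of DSS. The protocol states 3 cycles for the C57BL/6 background and tissue taken 2 weeks after the last DSS. The naive group carries the label naive, and no mock treatment is stated. From 4 cancer mice (mice 5 to 8) and 4 naive mice (mice 1 to 4), Foxp3+ CD4 T cells were split by TSLPR (gene Crlf2), a receptor chain for the cytokine TSLP, and by ST2 (gene Il1rl1), the receptor for IL-33. Each mouse gave a TSLPR+ST2+ gate, a TSLPR+ST2- gate, a TSLPR-ST2+ gate and a TSLPR-ST2- gate, so there are 8 groups of 4 libraries. A mouse is the replicate, and its 4 libraries come from 1 animal. One further library holds Foxp3- CD44low T cells of a naive mouse. Each library was made from 200 sorted cells and read as single 58-base reads.

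Ribosomal proteins are made in nearly equal numbers and assembled with ribosomal RNA in the nucleolus. In mammals many of their mRNAs begin with a terminal oligopyrimidine (TOP) tract, a C at the cap followed by a run of C or U, through which the kinase mTORC1 and the binding protein Larp1 control their translation. In T cells, ribosome production goes up when a resting cell is activated and grows. Counts of mRNA do not report translation.

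The starts of the genes that the results turn on are shown first, because the TOP tract is read from the first base of the transcript. RefSeq promoter windows (assembly GRCm38.p6, 250 bases before to 50 after each annotated start) matched 64 of the 86 members by symbol. A start of C followed by at least 4 bases that are each C or T, on the transcribed strand, was present in 14 of these 64 genes, which is 21.9%. The same start was present in 813 of all 27025 genes with a window, which is 3.01%. Of the members, 38 of 64 (59.4%) held such a run somewhere from 10 bases before to 15 after the start, as did 34.4% of all genes. The motif CCGGAAG, on either strand (CTTCCGG on the other), lay in the windows of 26 of 64 members (40.6%) and of 9.93% of all genes. CTTCCGG itself holds a C followed by 4 pyrimidines, so the motifs can overlap. All genes include genes that colon Treg cells do not express, and an annotated start can lie a few bases off the one used in these cells. The lines below give 30 bases before and 30 from the start, 5′ to 3′, for the 2 members with the smallest p in the TSLPR comparison (Rps27l and Rpl4), for Rps27, which is the parent of Rps27l, and for further members called in a comparison or fixed by role. Capitals mark a TOP run at the start or the letters CCGGAAG.
Rps27: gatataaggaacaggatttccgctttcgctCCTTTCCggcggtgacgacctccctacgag
Rps27l: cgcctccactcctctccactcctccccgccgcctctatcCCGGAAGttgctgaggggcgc
Rpl4: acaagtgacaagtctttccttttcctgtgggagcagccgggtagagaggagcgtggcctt
Rps18: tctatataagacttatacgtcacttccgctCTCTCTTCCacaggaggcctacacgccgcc
Rps6: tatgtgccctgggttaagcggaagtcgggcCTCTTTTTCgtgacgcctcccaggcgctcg
Rpl13: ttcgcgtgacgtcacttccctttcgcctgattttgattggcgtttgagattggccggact
Rps3a1: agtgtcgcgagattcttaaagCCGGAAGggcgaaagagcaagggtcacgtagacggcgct
These windows lie on the minus strand for Rps27 (chr3:90213619-90213678), Rps18 (chr17:33955636-33955695), Rps6 (chr4:86857338-86857397) and Rps3a1 (chr3:86142639-86142698). They lie on the plus strand for Rps27l (chr9:66946056-66946115, the first of 2 annotated starts), Rpl4 (chr9:64173357-64173416) and Rpl13 (chr8:123102320-123102379). Rps27, Rps18 and Rps6 have runs of 7, 9 and 9 pyrimidines from their first base. The annotated starts of Rps27l, Rpl4, Rpl13 and Rps3a1 have no such run.

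The family took a small part of the counts. Its share of all counts in the Treg libraries was 1.66% at the lowest, 2.90% at the median and 3.53% at the highest, and it was 3.17% in the Foxp3- library. By group the share averaged 2.72 ± 0.323% in cancer TSLPR+ST2+ and 2.21 ± 0.470% in naive TSLPR+ST2+ libraries (SD, n = 4 each). It averaged 3.09 ± 0.382% in cancer TSLPR+ST2- and 2.99 ± 0.126% in naive TSLPR+ST2- libraries. In the TSLPR-ST2+ gate the share averaged 2.68 ± 0.388% in cancer and 2.93 ± 0.558% in naive libraries. In the TSLPR-ST2- gate it averaged 3.04 ± 0.180% in cancer and 2.89 ± 0.401% in naive libraries. From high to low the order was cancer TSLPR+ST2-, cancer TSLPR-ST2-, naive TSLPR+ST2-, naive TSLPR-ST2+, naive TSLPR-ST2-, cancer TSLPR+ST2+, cancer TSLPR-ST2+, and lowest naive TSLPR+ST2+. The libraries of neighbours in that order overlapped in every case, but groups further apart did not all overlap. Naive TSLPR+ST2+ libraries (1.66 to 2.80%) lay below all naive TSLPR+ST2- (2.84 to 3.13%) and cancer TSLPR-ST2- libraries (2.90 to 3.30%). In bulk samples, fewer cells of a type and less RNA per cell cannot be told apart.

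**Figure D1:**
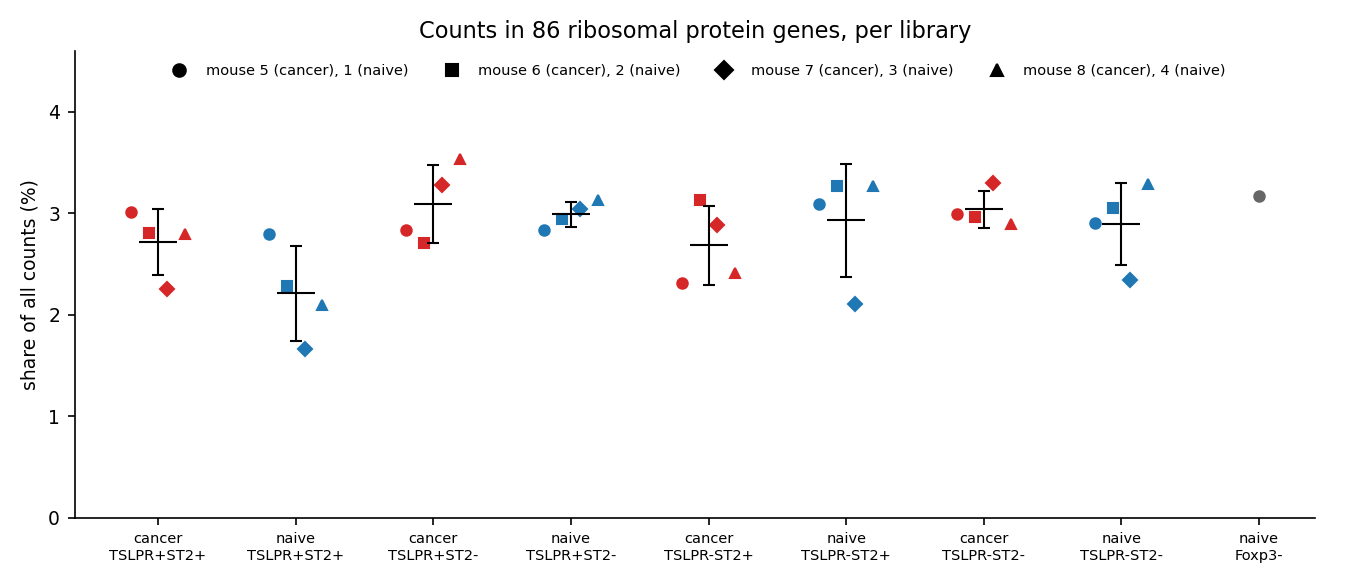
Share of all counts (percent) in the 86 ribosomal protein genes, 1 point per library, with the mean and SD of each group of 4 as a line with bars; red is cancer, blue is naive, grey is the Foxp3- library. Naive mouse 3 (blue diamonds) is low in 3 gates, at 1.66%, 2.10% and 2.34%, and not in TSLPR+ST2-, at 3.04%.

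Some libraries stood apart. Naive mouse 3 had the lowest share of its group in TSLPR+ST2+ (1.66%), TSLPR-ST2+ (2.10%) and TSLPR-ST2- (2.34%), but 3.04% in TSLPR+ST2-. Total counts ran between 4038718 and 8839946 per Treg library. Over the 32 libraries the share had a Pearson r of -0.58 with total counts, 0.38 with the share of counts in 2673 other protein-coding genes whose principal transcript is 1000 bases or shorter, 0.30 with the share of mitochondrial counts and 0.60 with the level of Malat1, a nuclear noncoding RNA. These are descriptions over libraries that share mice in sets of 4. Treg markers were present in every Treg library, with Foxp3 between 59.9 and 221.5 CPM (counts scaled to library size by TMM) there and 0.284 CPM in the Foxp3- library. Markers of other cells were present as well, with 6 myeloid genes (Lyz2, Csf1r, C1qa, C1qb, C1qc and Cd68) summing to between 1.77 and 2617 CPM, while the mast cell proteases Mcpt1, Mcpt2 and Cma1 were at 0 in all 32.

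Per length, the levels of the members covered a wide range. Dividing the mean CPM over the 32 Treg libraries by the length of the principal transcript gave a median of 288 CPM per kilobase over the 86. Rps27, a zinc-binding protein of the 40S subunit, was highest at 1314 CPM per kilobase. Others among the highest were Rps14 at 1073, Rps18 at 968 and Rpl4 at 960.3 CPM per kilobase. The lowest were Rpl39l at 0.848, Rpl24 at 2.79 and Rpl10-ps3 at 3.88 CPM per kilobase. Rpl39l is a paralog of Rpl39 known from testis and had 10 counts in 5 Treg libraries. Rpl24, a core protein of the 60S subunit, had them in 18. Among the 6 symbols outside the count rule, Rpl3l reached 10 counts in 2 libraries and Rps12-ps3 in 1, while Rpl10l had no count in any. Rpl13a, known in mammals for a role in silencing inflammatory mRNAs outside the ribosome, was also low, at 14.9 CPM per kilobase.

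Reads of these genes can match their many copies. Over the members, a median of 42.8% of the 58-base windows of the transcripts was found unchanged in a transcript of another gene, and 35 of the 86 shared more than 50% of their windows. Rps27 shared 98.6% of its windows, Rpl10-ps3 96.1% and Rpl24 81.5%, whereas Rps19bp1 and Rpl39l shared none. The handling of reads with several matches is not stated in the labels, so the levels of genes with shared windows are uncertain. Another 296 rows, mostly pseudogenes named after a ribosomal protein, took between 0.0192% and 0.0494% of the counts of a Treg library.

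Most members went up and down together from library to library. The log2 level of a member correlated with that of the other members summed at a median r of 0.937 over the 32 libraries, and 75 of 86 had an r over 0.8. These levels share the library's scaling and its share of short transcripts. Rpl7l1, a paralog of Rpl7, had an r of -0.300 at a mean of 158 CPM, and Rps27l had 0.328 at 119.9 CPM. Rps19bp1 had an r of 0.278 at 32.9 CPM, and Rpl13a 0.243 at 15.6 CPM. The other members with r under 0.2 were Rpl24 and Rpl39l, both under 2 CPM on average. The ratio of 40S to 60S counts lay between 0.929 and 1.00 in all 32 libraries.

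Across the 8 group means the members spread little. On the log2 scale the SD of the 8 group means was smallest for Rps9 and Rpl7a (both 0.120) and Rpl19 (0.124). It was largest for Rpl24 (0.510), Rpl39l (0.480) and Rps27rt (0.281), all under 20 CPM on average. Among members over 100 CPM on average, Rps27l had the largest, at 0.226.

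The first comparison asks how Treg cells with ST2 differ from those without it. Averaged over TSLPR gates and cancer and naive mice, 12 of the 86 members were lower in ST2+ cells at an adjusted p under 0.05. None was higher, by edgeR or DESeq2, also at an unadjusted p under 0.05, at which 56 were lower. Among the 12 were the 60S proteins Rpl8, Rpl10a, Rpl4, Rpl31 and Rpl26, the P stalk protein Rplp0, and the 40S proteins Rps2, Rps18, Rps19 and Rps15. The steps were small, with log2 changes between -0.31 and -0.16. Over all 86 members the median log2 change was -0.18, and 83 were negative. Over all 14861 genes tested the median was -0.00497, with 2.33% called lower and 3.7% called higher, against 14.0% of the members called lower. Adjusted p-values are from edgeR's quasi-likelihood test with Benjamini-Hochberg adjustment over all genes tested, unless another is named.

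Rpl8, which lies near the peptidyl transferase centre, had the smallest p. In the 16 ST2+ libraries it was 505.7 CPM at the lowest, 706 at the median and 909.8 at the highest. In the 16 ST2- libraries it was 723, 882 and 953 CPM. The groups overlapped, and the level was lower in ST2+ cells in 7 of 8 mice (log2 change -0.26, SE 0.06, adjusted p = 0.00771). The lowest ST2+ library lay under every ST2- library. Rplp0, the base of the P stalk that recruits elongation factors, had a median of 1171 CPM (833 to 1492) in ST2+ and 1367 CPM (1159 to 1495) in ST2- libraries. It was lower in ST2+ cells in 7 of 8 mice (log2 change -0.20, SE 0.05, adjusted p = 0.0252). Rpl10a, of the L1 stalk, had a median of 130.2 CPM (91.0 to 183) in ST2+ libraries and 163 CPM (131 to 198) in ST2- libraries (log2 change -0.29, SE 0.08, adjusted p = 0.0248). In each of these 3 the ST2+ libraries spread further down than the ST2- libraries. Rps2, at the mRNA entry side of the 40S subunit, had a median of 558 CPM (367 to 666) in ST2+ and 637 CPM (521 to 707) in ST2- libraries (log2 change -0.21, SE 0.06, adjusted p = 0.0257). Rps18, of the head of the 40S subunit, had a median of 497 CPM (332 to 647) in ST2+ and 573 CPM (519 to 653) in ST2- libraries (log2 change -0.21, SE 0.06, adjusted p = 0.0341). For these 5 and for the other 7 the ranges of ST2+ and ST2- libraries overlapped. Rpl4 was lower in ST2+ cells in 8 of 8 mice, and each of the 12 was lower in at least 6 of 8. The 12 were picked by this test in the same libraries, so these counts of mice are no independent check. The share of counts of the whole family, averaged over TSLPR gates, was also lower in 6 of 8 mice.

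**Figure D2:**
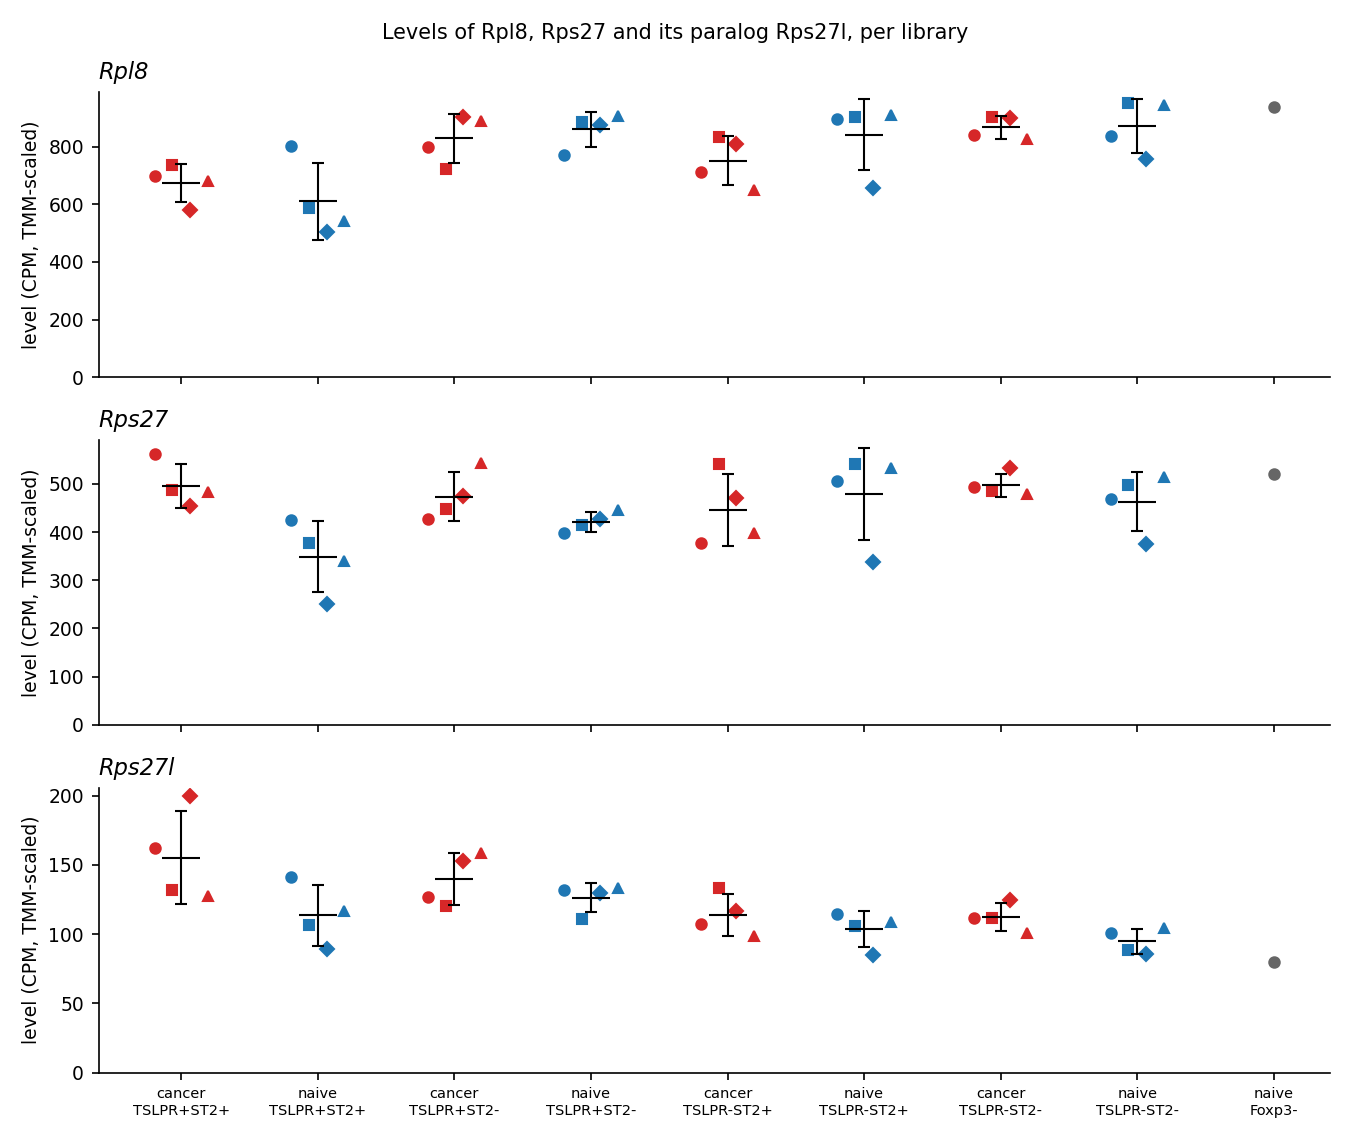
Levels (TMM-scaled CPM) of Rpl8, Rps27 and Rps27l in each library, with the mean and SD of each group of 4; colours and mouse symbols as in the plot of shares. Rpl8 is lowest in the 4 naive TSLPR+ST2+ libraries on average, and Rps27l is higher in TSLPR+ libraries (left) than in TSLPR- libraries (right), with a lowest value in the Foxp3- library.

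The other members of fixed roles had the same sign and did not pass edgeR's test without a mouse block. Rplp1 and Rplp2, the partners of Rplp0 on the stalk, had log2 changes of -0.13 and -0.13 (adjusted p = 0.345 and 0.370). Rpl5 and Rpl11, which with 5S rRNA bind the p53 regulator Mdm2, had -0.22 and -0.15 (adjusted p = 0.0581 and 0.208). Rps6, the substrate of the S6 kinases, had -0.18 (adjusted p = 0.0645). Rps3, at the mRNA entry channel, had -0.20 (adjusted p = 0.0789), and Rpsa, also known as a laminin receptor, had -0.18 (adjusted p = 0.0805). Rps27a, made as a fusion with ubiquitin, had -0.19 (adjusted p = 0.138). Rpl10, which is among the last proteins to join the 60S subunit, had -0.21 (adjusted p = 0.0695). The 3 members with a positive change were Rpl7l1 (0.12, adjusted p = 0.444), Rps27l (0.04, adjusted p = 0.892) and Rpl39l (1.16, SE 0.84, adjusted p = 0.507).

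With the mouse as a block, which pairs the gates of an animal, 20 members were lower in ST2+ cells (2.26% of all genes lower). The 20 hold the 12 and, of the members of fixed roles, Rps3 and Rpsa. Leaving out 1 mouse at a time left only Rpl8 without mouse 4, mouse 7 or mouse 8. Of the 12, 2 still passed without mouse 2, 3 without mouse 3, 5 without mouse 5, with Rpl5 passing in addition, and 10 without mouse 6. Without mouse 1, 18 members passed, the 12 among them. The family's share of counts was lower in TSLPR+ST2+ than in TSLPR+ST2- libraries in 6 of 8 mice, and lower in TSLPR-ST2+ than in TSLPR-ST2- libraries in 5 of 8 mice. In naive TSLPR- cells the mean share was not lower with ST2 (2.93%, against 2.89% without it). It was lower with ST2 in naive TSLPR+ (2.21%, against 2.99%), cancer TSLPR+ (2.72%, against 3.09%) and cancer TSLPR- cells (2.68%, against 3.04%). Myeloid markers moved with ST2. The 6 myeloid genes summed to 309 at the lowest, 741 at the median and 2617 CPM at the highest in ST2+ libraries, against 1.77, 151 and 1139 CPM in ST2- libraries, and all 6 passed the test. Cd68 was 4.73-fold higher in ST2+ cells, C1qa 13.9-fold and Csf1r 13.7-fold (adjusted p = 1.84e-05, 5.66e-05 and 0.000107). These folds average log2 changes over groups, some with levels near 0, and C1qa and Csf1r were at 0 in 5 and 4 Treg libraries. Mean levels in ST2+ and ST2- libraries lay less far apart, at 64.9 and 11.8 CPM for C1qa and 43.5 and 8.32 CPM for Csf1r. For Cd68 they were 47.1 and 11.0 CPM. Of 4 epithelial genes tested, Epcam was 2.64-fold higher in ST2+ cells (adjusted p = 0.00118), and the 6 epithelial genes summed to 10.7, 84.9 and 2725 CPM in ST2+ and 12.7, 33.6 and 92.6 CPM in ST2- libraries (lowest, median, highest). Of 4 Treg markers, Foxp3 (log2 change -0.40, adjusted p = 0.024) and Il2ra (-0.56, adjusted p = 1.4e-05) fell and Ikzf2 rose (0.36, adjusted p = 0.00531), and of 4 T cell markers Cd3e fell (-0.20, adjusted p = 0.041). The part of these markers in the result was not tested.

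The second comparison asks the same of TSLPR. In TSLPR+ cells 1 member was higher than in TSLPR- cells, Rps27l, and 1 was lower, Rpl4. The remaining 84 did not pass the test, and the median log2 change over the 86 was -0.08, with 72 negative. Over all genes the median was 0.01, with 7.97% called higher and 5.46% called lower, so the share of members called, 1.16% in each direction, was below that of genes at large.

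Rps27l is the paralog of Rps27, known in human cells as a target of p53. It had 89.1 CPM at the lowest, 131 at the median and 199.7 at the highest in the 16 TSLPR+ libraries, against 84.8, 107 and 134 CPM in the 16 TSLPR- libraries. It was 1.26-fold higher in TSLPR+ cells (log2 change 0.33, SE 0.08, adjusted p = 0.0033), and higher in 8 of 8 mice, with overlapping ranges. Its parent Rps27 had a log2 change of -0.13 in the same comparison (SE 0.07, adjusted p = 0.262). Rpl4, whose loop lines the tunnel for the growing chain, had 992 CPM at the lowest, 1407 at the median and 1619 at the highest in TSLPR+ libraries, against 1322, 1599 and 1723 CPM in TSLPR- libraries. It was 1.14-fold lower in TSLPR+ cells (log2 change -0.18, SE 0.05, adjusted p = 0.00714) and lower in 7 of 8 mice. Rps27l and Rpl4 were picked by this test in the same libraries, so their counts of mice are no independent check.

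By group Rps27l was 163, 132, 199.7 and 127 CPM in the 4 cancer TSLPR+ST2+ libraries, against 142, 107, 89.1 and 117 CPM in the 4 naive ones. In the TSLPR-ST2- gate it was 112, 112, 125 and 101 CPM in cancer libraries, against 101, 88.9, 85.4 and 104 CPM in naive libraries. The groups overlapped in both gates, and its changes between cancer and naive mice did not pass edgeR's test in any gate (adjusted p = 0.0802 in TSLPR+ST2+ and 0.772 in TSLPR-ST2-). In TSLPR+ST2+ cells DESeq2 called it higher in cancer mice, as did edgeR without mouse 8. The Foxp3- library had 79.99 CPM, below each Treg library.

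The other paralogs and copies did not pass the test in TSLPR+ cells. Rpl22l1, the paralog of Rpl22, had a log2 change of -0.24 in TSLPR+ cells (SE 0.14, adjusted p = 0.302), and Rpl22, which T cell development in the mouse depends on, had 0.01 (SE 0.09, adjusted p = 0.98). Rpl36al averaged 6.66 CPM and had -0.05 (SE 0.25), and its parent Rpl36a had -0.05 (SE 0.10). Rpl7l1 had -0.02 (SE 0.08) and Rpl7 -0.12 (SE 0.07), while Rpl39l and Rpl39 had 1.06 (SE 0.82) and 0.06 (SE 0.10). Rps27rt, a retrogene copy of Rps27, had -0.19 (SE 0.16). Rpl10-ps3 and Rpl9-ps6, annotated as protein-coding, averaged 2.98 and 18.3 CPM, and had 0.08 (SE 0.30) and -0.14 (SE 0.13).

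With the mouse as a block, Rps27l was higher and 3 members were lower, Rpl4 and Rps19 among them (7.06% and 5.46% of all genes). In an alternative chosen after seeing the data, the share of counts in other short transcripts entered the model as a covariate. This share averaged 6.32 ± 0.88% in TSLPR+ and 5.46 ± 0.487% in TSLPR- libraries (SD, n = 16 each). With it, 66 members were lower in TSLPR+ cells (3.18% of all genes lower), with a median log2 change of -0.30, and Rps27l no longer passed (log2 change 0.08, adjusted p = 0.525). Under the same covariate 43 members were lower in ST2+ cells (3.51% of all genes lower). Without mouse 3, 6 members were lower in TSLPR+ cells, and without mouse 6 Rpl4 no longer passed (adjusted p = 0.0502). Myeloid markers were higher in TSLPR+ cells as well, at 136, 506 and 2167 CPM summed (lowest, median, highest) in TSLPR+ and 1.77, 234 and 2617 CPM in TSLPR- libraries, with 6 of 6 passing, and 4 of 5 B and plasma cell markers rose. Of 4 epithelial genes tested 2 rose, Epcam (3.46-fold, adjusted p = 2.72e-05) and Krt20 (adjusted p = 0.00332), and the 6 summed to 29.3, 93.6 and 2725 CPM in TSLPR+ and 10.7, 30.5 and 75.2 CPM in TSLPR- libraries. Krt20 averaged 47.5 ± 180 CPM in TSLPR+ libraries (SD, n = 16), was at 0 in 18 of the 32 Treg libraries and peaked at 720.6 CPM. The sum of 2725 CPM is that of the cancer mouse 7 TSLPR+ST2+ library. Of 4 T cell markers 3 rose (Trac, Cd3d and Cd3e), as did 2 of 4 Treg markers (Ctla4 and Ikzf2). Their part in the result was not tested.

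**Figure D3:**
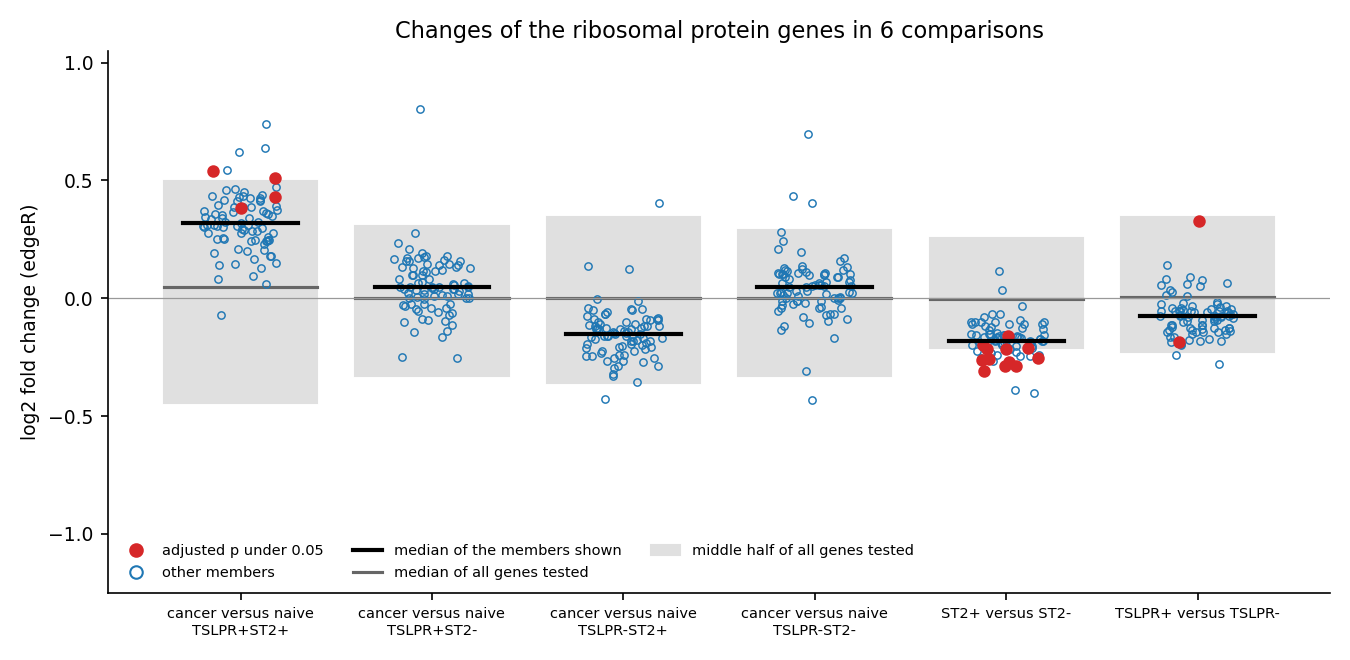
Log2 fold change (edgeR) of 85 members in 6 comparisons, 1 point per gene (Rpl39l, with under 1 CPM on average, is not drawn); red points passed an adjusted p of 0.05, black lines are medians of the members, grey lines are medians of all genes tested and grey boxes hold the middle 50% of them. All drawn members but Rpl7l1 lie above 0 in cancer versus naive TSLPR+ST2+ cells, and all but Rpl7l1 and Rps27l lie below 0 in ST2+ versus ST2- cells.

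Between the single-positive gates, TSLPR+ST2- and TSLPR-ST2+, no member passed edgeR's test, and DESeq2 called none either. At an unadjusted p under 0.05, 6 were higher in TSLPR+ST2- cells and none lower. The median log2 change was 0.09, with 76 of 86 positive, against 0.02 over all genes, of which 2.67% were called. Without mouse 3 or mouse 8 the median was 0.03. With the share of short transcripts as a covariate the direction turned, with a median of -0.12, 79 members negative and 19 lower at an unadjusted p under 0.05, and none passed the adjusted limit.

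The third comparison sets cancer against naive mice within a gate. In TSLPR+ST2+ cells 4 members were higher in cancer mice, Rpl13, Rps27, Rps29 and Rps3a1. None was lower, by edgeR or DESeq2, also at an unadjusted p under 0.05, at which 45 were higher. The median log2 change over the 86 was 0.32, and 85 were positive, the exception being Rpl7l1 (-0.07, SE 0.15). Over all genes the median was 0.05, with 1.66% called higher and 2.5% called lower, against 4.65% of the members called higher.

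Rpl13, of the 60S subunit, had 681, 589, 565 and 628 CPM in the cancer TSLPR+ST2+ libraries (mice 5 to 8), against 559.7, 496, 387 and 445 CPM in the naive ones (mice 1 to 4). All 4 cancer libraries were above all 4 naive ones (log2 change 0.38, SE 0.10, adjusted p = 0.0289). Rps27 had 561, 486, 455 and 483 CPM in the cancer libraries, against 426, 377, 251 and 341 CPM in the naive ones. Here too the groups did not overlap (log2 change 0.51, SE 0.14, adjusted p = 0.04). Rps29, a zinc-binding protein of the head of the 40S subunit, had 211, 201, 199 and 195 CPM in cancer libraries, against 176, 146, 96.9 and 136 CPM in naive libraries. These groups also lay apart (log2 change 0.54, SE 0.16, adjusted p = 0.0468). Rps3a1, at the mRNA exit side of the 40S subunit, had 553, 518, 446 and 483 CPM in cancer libraries, against 471, 394, 286 and 337 CPM in naive libraries. One naive library lay within the cancer range (log2 change 0.43, SE 0.13, adjusted p = 0.0496).

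**Figure D4:**
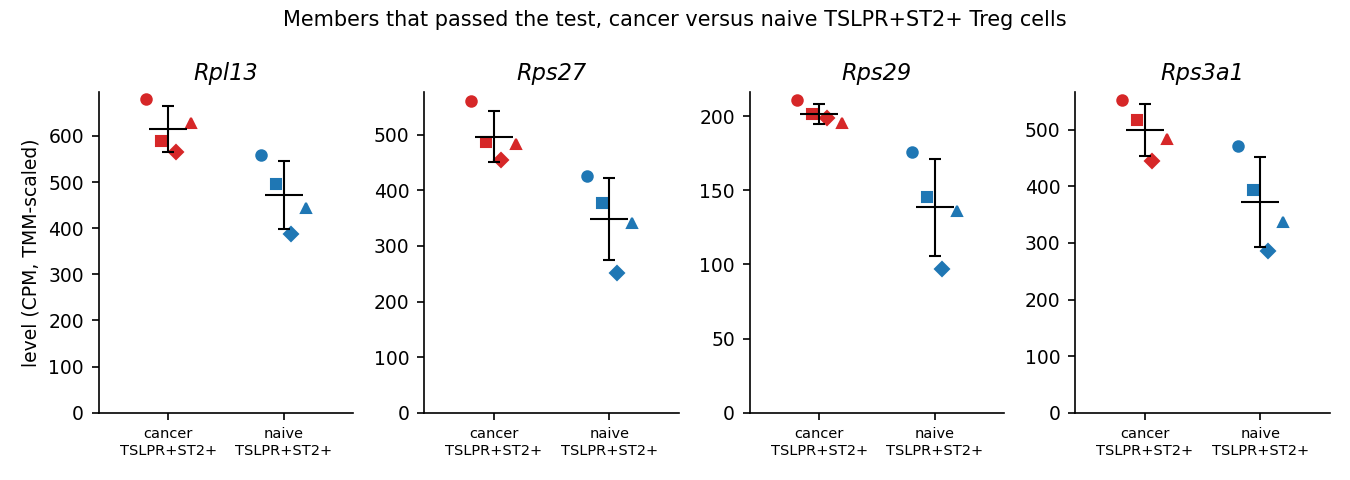
Levels (TMM-scaled CPM) of the 4 members that passed the test in cancer (red, left) versus naive (blue, right) TSLPR+ST2+ libraries, 1 point per mouse with the mean and SD of 4. Rpl13, Rps27 and Rps29 do not overlap between the groups, and naive mouse 3 (blue diamond) is the lowest point for all 4.

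The members of fixed roles did not pass edgeR's test. Rpl10 had a log2 change of 0.46 (adjusted p = 0.0572), Rps6 0.36 (adjusted p = 0.0746), Rps27l 0.45 (adjusted p = 0.0802) and Rps27a 0.41 (adjusted p = 0.121). DESeq2, which called 15 members, called Rpl10, Rps6 and Rps27l higher, and edgeR with RLE scaling called Rpl10. Without mouse 1, edgeR called Rpl10, Rps27a and Rplp1. Rpl5 and Rpl11 had 0.37 and 0.34 (adjusted p = 0.128 and 0.166). Of the P stalk, Rplp1 had 0.40, Rplp2 0.35 and Rplp0 0.15 (adjusted p = 0.13, 0.181 and 0.492). Rpl22 had 0.24 (SE 0.17), and Rpl22l1 had 0.13 (SE 0.28).

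The cancer and naive libraries of this gate also differed in other measures. Total counts were 4038718 to 5816224 in cancer libraries and 6607867 to 8839946 in naive libraries, with no overlap. The share of counts in other short transcripts averaged 7.17 ± 1.00% in cancer and 5.46 ± 0.751% in naive libraries, and the mitochondrial share 2.48 ± 0.775% and 0.865 ± 0.269% (SD, n = 4 each). Malat1 averaged 1103 ± 109 CPM in cancer and 600.0 ± 158 CPM in naive libraries, with no overlap. The 6 myeloid genes summed to 380.0 to 759.6 CPM in cancer and to 1363 to 2167 CPM in naive libraries, with no overlap. The 6 epithelial genes summed to 2725 CPM in the library of cancer mouse 7 and to between 94.6 and 176 CPM in the other 7. None of these epithelial or myeloid markers passed the test here except Krt8 and Krt20, and Foxp3 itself averaged 90.8 ± 25.8 CPM in cancer and 155 ± 35.4 CPM in naive libraries (adjusted p = 0.0431). Of these measures, only total counts (by thinning all libraries to the smallest total) and the short-transcript share (as a covariate) entered other fits. The part of the rest in the result was not tested. With thinned libraries 3 of 85 members were higher (284 of all 13667 genes), the median log2 change was 0.34, and 84 were positive. With the share of short transcripts as a covariate no member was called higher (0.0269% of all genes), and the median log2 change was -0.06. No member passed without mouse 2, 3, 4, 5 or 7, or with only the 8 libraries of the gate. Without mouse 6, 8 or 1, 1, 2 and 14 members passed, and the median log2 change without naive mouse 3 was 0.21, with 82 positive.

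**Figure D5:**
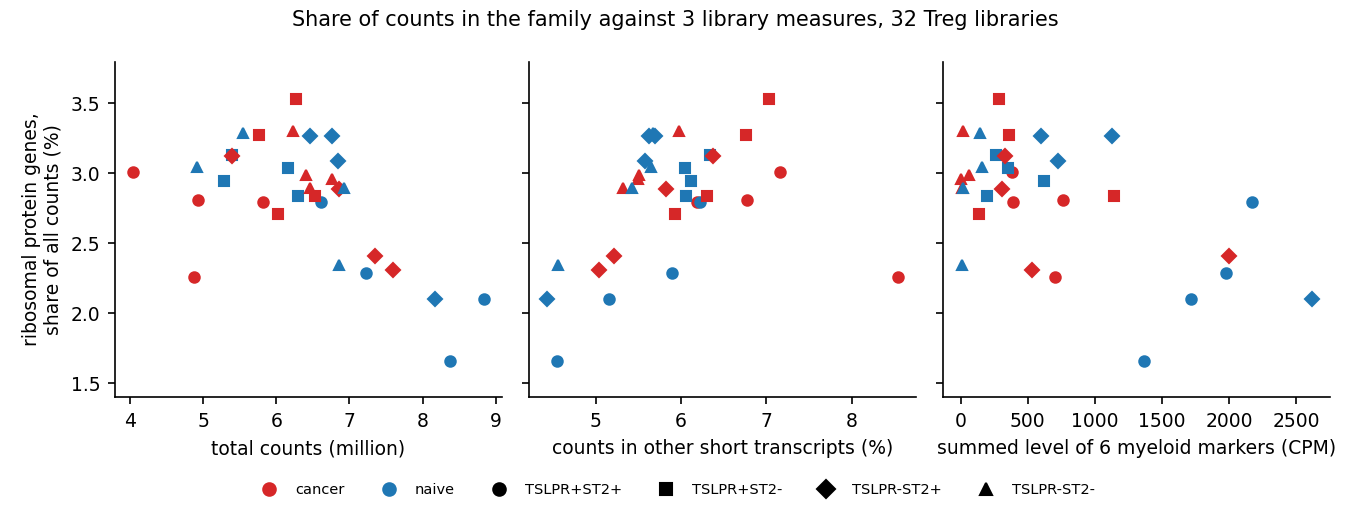
Share of counts in the family (percent, vertical axis) against total counts, the share of counts in other transcripts of 1000 bases or shorter (percent) and the summed level of 6 myeloid markers (CPM) in the 32 Treg libraries; red is cancer, blue is naive, and the symbol gives the gate. The 3 libraries with the most counts lie at 2.10%, 1.66% and 2.10%, and cancer mouse 7 TSLPR+ST2+ lies apart at 8.55% short transcripts and 2.26% ribosomal protein counts.

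In the other 3 gates no member passed edgeR's test between cancer and naive mice, and DESeq2 called none. In TSLPR+ST2- cells the median log2 change was 0.04, with 61 positive, none at an unadjusted p under 0.05, and 0.0471% of all genes called. Without cancer mouse 8 that median was -0.04, and with the short-transcript covariate it was -0.05. In TSLPR-ST2- cells it was 0.05 (-0.06 without naive mouse 3, -0.02 with the covariate), with 59 positive, 1 lower at an unadjusted p under 0.05, and 0.209% of all genes called. In TSLPR-ST2+ cells the median was -0.15 with 83 negative, 1 lower at an unadjusted p under 0.05, and 0.202% of all genes called. Without naive mouse 3 the median in that gate was -0.27, and 47 members were lower at an unadjusted p under 0.05, still with none past the adjusted limit. Rps27 had a log2 change of -0.10 there (SE 0.14, adjusted p = 0.913) and Rpl8 -0.16 (SE 0.12, adjusted p = 0.726).

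Summed over the 4 gates of a mouse, no member passed the test between cancer and naive mice. The share of counts per mouse was 2.74, 2.90, 2.96 and 2.89% in the cancer mice, against 2.91, 2.85, 2.23 and 2.85% in the naive mice. Naive mouse 3 was the lowest of the 8, and the others lay between 2.74 and 2.96%. Neither edgeR nor DESeq2 called a member (edgeR called 1.21% of all 15338 genes), and 5 were higher at an unadjusted p under 0.05. The median log2 change was 0.07 with 75 positive, and without mouse 3 it was -0.01 with 37 positive. The change of a member between cancer and naive mice did not pass an interaction with TSLPR or with ST2, each averaged over the other marker. Whether that change in TSLPR+ST2+ cells differed from that in the other gates was not tested. In the interaction of status with TSLPR, none was called by edgeR or DESeq2 and 0.0% of all genes were by edgeR. The median log2 difference was 0.24, and 13 members were positive at an unadjusted p under 0.05. These became 55 without mouse 3 and 0 without mouse 2, 4, 5 or 8 or with the short-transcript covariate, under which the median was 0.07. In the interaction of status with ST2, none was called by either tool, none had an unadjusted p under 0.05, 0.0% of all genes were called by edgeR, and the median was 0.05. That median was -0.03 without mouse 3, -0.02 without mouse 6 and -0.09 with the covariate.

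Genes that make or serve ribosomes were described beside the family, from lists chosen with earlier results of these data known. Of 44 genes of ribosome biogenesis, 9 fell and none rose in ST2+ cells (20.5% lower, against 2.33% of all genes), and 7 fell and none rose in TSLPR+ cells (15.9% lower, against 5.46%). Myc, the transcription factor that drives ribosome production, averaged 232 ± 72.9 CPM in TSLPR+ and 373 ± 94.7 CPM in TSLPR- libraries (log2 change -0.70, SE 0.09, adjusted p = 1.15e-06). It averaged 258 ± 105 CPM in ST2+ and 347 ± 97.8 CPM in ST2- libraries (SD, n = 16 each; log2 change -0.48, SE 0.09, adjusted p = 0.000667). Nop56, of the nucleolar particles that methylate rRNA, and Dkc1, which pseudouridylates rRNA, also fell in both comparisons, with log2 changes of -0.28 and -0.42 in ST2+ cells (adjusted p = 0.0244 and 0.00366). In cancer TSLPR+ST2+ cells 4 biogenesis genes fell and none rose (9.09% lower, against 2.5% of all genes). Among them, Bop1 and Pes1, which form a complex needed to mature 60S subunits, had log2 changes of -0.77 and -1.07 (adjusted p = 0.0144 and 0.0187). The medians of this list were -0.19 in ST2+, -0.19 in TSLPR+ and -0.13 in cancer TSLPR+ST2+ cells. Its sign in that cancer gate was the reverse of the ribosomal proteins' median of 0.32 in the main fit. With the short-transcript covariate the ribosomal proteins' median there was -0.06, and the list's median under that covariate is not reported here.

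Of 28 initiation factors, 3 fell in ST2+ cells and none rose (10.7% lower, against 2.33% of all genes). Eif5a, which relieves stalled ribosomes, averaged 939 ± 102 CPM in ST2+ and 1181 ± 115 CPM in ST2- libraries (log2 change -0.33, SE 0.05, adjusted p = 5.02e-05). In TSLPR+ cells 3 fell (10.7%, against 5.46% of all genes), and in cancer TSLPR+ST2+ cells 1 rose (3.57%, against 1.66%) and 3 fell (10.7%, against 2.5%). Of 14 elongation factors and other TOP genes, 1 fell in ST2+ cells (7.14%, against 2.33% of all genes), Npm1 (log2 change -0.31, adjusted p = 0.00421). In TSLPR+ cells Nap1l1 rose (0.32, adjusted p = 0.04) and Eef2, which moves the ribosome along the mRNA, fell (-0.24, adjusted p = 0.0168), which is 7.14% each way, beside 7.97% and 5.46% of all genes. In cancer TSLPR+ST2+ cells edgeR called none of the 14.

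Of 31 genes of the mTORC1 pathway, Larp1, the repressor that binds TOP mRNAs, fell in TSLPR+ cells (log2 change -0.38, SE 0.09, adjusted p = 0.00351). It averaged 97.3 ± 21.9 CPM in cancer and 168 ± 22.7 CPM in naive TSLPR+ST2+ libraries (SD, n = 4 each; log2 change -0.79, SE 0.18, adjusted p = 0.011). In all, 4 genes of this list rose and 2 fell in TSLPR+ cells (12.9% and 6.45%, beside 7.97% and 5.46% of all genes). In cancer TSLPR+ST2+ cells 2 rose and 3 fell (6.45% and 9.68%, beside 1.66% and 2.5%), and in ST2+ cells 1 rose (3.23%, beside 3.7%). The ribosome of the mitochondrion, built from other genes, was set beside the cytosolic one. Of its 77 genes tested, 8 rose and none fell in TSLPR+ cells (10.4%, near the 7.97% of all genes, median log2 change 0.11). In ST2+ cells 2 fell (2.6%, near the 2.33% of all genes, median -0.09), and in cancer TSLPR+ST2+ cells 2 rose (2.6%, beside 1.66%, median 0.29). Mrps6 averaged 124 ± 20.5 CPM in TSLPR+ and 90.1 ± 18.2 CPM in TSLPR- libraries (SD, n = 16 each; log2 change 0.46, SE 0.08, adjusted p = 0.000152). Fau was called in none of these 3 comparisons.

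All 6 markers of naive and central T cells fell in TSLPR+ cells, among them Klf2 (log2 change -0.89) and S1pr1 (-0.98), with adjusted p of 1.11e-11 and 7.58e-11. In ST2+ cells 2 of the 6 fell, among them Ccr7 (log2 change -0.57, adjusted p = 0.000783). In cancer TSLPR+ST2+ cells S1pr1 was among those that fell (log2 change -0.48, adjusted p = 0.0491). Their part in the changes of the ribosomal protein genes was not tested.

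Against the Foxp3- CD44low library, naive Treg libraries were a little lower on average. The Foxp3- share of counts (3.17%) lay above naive TSLPR+ST2+ (1.66 to 2.80%) and TSLPR+ST2- libraries (2.84 to 3.13%). It lay within the ranges of naive TSLPR-ST2+ (2.10 to 3.27%) and TSLPR-ST2- libraries (2.34 to 3.29%). The 16 naive Treg libraries averaged below the single Foxp3- library for 79 of the 86 members, with a median log2 difference of -0.22, against 0.06 over all 14861 genes. With 1 library there is no test. For 11 of the 86 members the Foxp3- value lay above all 16 naive Treg libraries and for 2 of the 86 below them, beside 8.66% and 8.82% of all genes. The 2 were Rps27l, at 79.99 CPM (log2 difference 0.43), and Rpl7l1, at 128 CPM (0.38). Among the 11 were Rplp0 (1543 CPM, log2 difference -0.27), Rpl10a (203 CPM, -0.47), Rps4x (517 CPM, -0.44) and Rps29 (231 CPM, -0.42).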

How the data were processed

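RNA was measured in 33 libraries of 200 sorted colon T cells each. The authors deposited whole-number read counts per gene, in 1 table of 53465 Ensembl genes. HTSeq 0.4.1, SAMtools 1.2, Picard 1.134, FastQC 0.11.3 and the build GRCm38 are named, per the submitters' processing notes. The aligner, the annotation release, the use of strand and the treatment of reads with several matches remain not given in the sources used here. Symbols were taken from GENCODE M21 for 53274 genes. Full-length SMART-Seq v4 cDNA was used without molecular identifiers, per the labels, so counts are reads and not molecules.

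Counts of the 32 Treg libraries were fitted as 8 group means with edgeR 4.0.16 (R 4.3.3), using TMM scaling, filterByExpr (minimum count 10, minimum total 15) and the robust quasi-likelihood F-test. P-values were adjusted by Benjamini-Hochberg over all genes tested, with a limit of 0.05. Per-mouse tests used the 4 gates of a mouse summed. Levels are TMM-scaled CPM, and log2 levels for correlations used a pseudocount of 0.5 CPM. The fits were tried on simulated counts drawn independently for each library. No mouse effect was simulated, so this run cannot check how the pairing was treated. Total counts were 4038718 to 8839946 per Treg library and 7022068 in the Foxp3- library, and precision was limited by 4 mice per group. P-values of the main fit measure the spread between the libraries of a group, each from another mouse. In the main ST2 and TSLPR tests the 4 libraries of a mouse were treated as independent. The fit with the mouse as a block takes the pairing into account.

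Genes were named by role, copy status, level, spread between groups and, in each comparison, the up to 5 members in each direction with the smallest p among those called. The members, the gene lists and this rule were chosen with earlier results of these data known. Genes of the other lists were named among their called members. The values of some members and list genes are not reported here, though counts include them. Alternatives were RLE scaling, TMM without the members, DESeq2 1.42.0, no filter, thinned libraries, leaving out each mouse, fitting a gate by itself, the mouse as a block (edgeR, or limma 3.58.1 with voom) and, chosen after seeing the data, the share of short transcripts as a covariate. Libraries with the same mouse number come from the same animal, per the labels, so the mouse pairs them. Over 48 pairs of libraries of 1 mouse the deviations from group means had a mean correlation of 0.00993 (-0.0421 to 0.192) over all genes and 0.116 (-0.788 to 0.798) over the members.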

Additional observations from a re-analysis of the deposited data

Results flagged for a closer look

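Of 136 groups of 4 libraries examined over 17 measures of the family, 7 had 1 library whose gap to the nearest other was larger, relative to the group's range, than Dixon's 95% critical value. Chance alone marks about 1 in 20 groups. The measures of 1 library are not independent, since the members move together.

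Of the 7, 3 were in the naive TSLPR-ST2+ library of mouse 3. Its ribosomal protein share was 2.10%, against 3.09 to 3.27% in the other mice of that group. Rpl8 was 656.6 CPM there, against 897 to 909.8 CPM. Rps2 was 449 CPM, against 648 to 663 CPM. The naive TSLPR+ST2- library of the same mouse had a ratio of 40S to 60S counts of 0.969, against 0.982 to 0.984.

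In the cancer TSLPR-ST2- library of mouse 7, Rps19 was 789.5 CPM, against 709 to 716 CPM in the other mice of that group, and Rps2 was 700.9 CPM, against 625 to 636 CPM. Rps27l was 111 CPM in the naive TSLPR+ST2- library of mouse 2, against 129.7 to 133 CPM.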

How the results depend on the processing

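Of 72 counts of called members recomputed under another setting, apart from leaving out a mouse, 61 stayed within 1.5 times the reported count. The 61 include counts of 0 that stayed 0, from the 7 comparisons without a called member, and these say little about stability. The 5 counts that fell further and the 6 that rose further were all in the ST2, TSLPR and cancer TSLPR+ST2+ comparisons. In ST2+ against ST2- cells the 12 members called lower became 6 with RLE scaling, 5 without the low-count filter and 43 with the short-transcript covariate. In TSLPR+ against TSLPR- cells the 2 called became 5 with TMM computed without the members and 66 with the covariate. In cancer against naive TSLPR+ST2+ cells the 4 called became 15 with DESeq2 and 0 without the filter, with only the 8 libraries of the gate, or with the covariate. The cause of these changes was not tested. Leaving out 1 mouse at a time gave 1 to 18 calls for ST2, 1 to 7 for TSLPR and 0 to 14 for cancer TSLPR+ST2+, and 0 in each of the other 7 comparisons. With the mouse as a replicate block, which pairs the gates of an animal, 20 members were called for ST2 and 4 for TSLPR. With it as a random effect in limma, 3 were called in cancer TSLPR+ST2+ cells (duplicate correlation 0.0218). The block changed no other count, each of which was 0. Of 274 values of called genes under other settings, 157 stayed past the limit, 117 did not and 0 turned direction. These genes were picked because they passed in the same libraries, so these counts are no independent check. Over all 86 members, the median in cancer TSLPR+ST2+ cells went from 0.32 to -0.06 with the covariate. All 16 recomputed shares of counts moved by less than 1 SD, with pseudogene rows added or mitochondrial genes left out of the denominator. Both settings change few counts beside the SD of a group, so this says little about stability. Members under 20 CPM, such as Rpl24, Rpl39l and Rpl10-ps3, had too few counts for small changes to be detectable.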
